A study of Homo sapiens with 8 samples.

Results

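The glucocorticoid receptor gene, NR3C1, and 8 genes known to be induced through it were followed in 2 established human lines labelled as small cell lung cancer, NCI-H146 and NCI-H1688. The members were taken by gene name (NR3C1, FKBP5, TSC22D3, SGK1, ERRFI1, CEBPD, DDIT4, GLUL and ZBTB16), and all 9 had a row in both deposited tables, among 17169 gene names in NCI-H146 and 56981 in NCI-H1688. Each line had 2 libraries from cells infected with lentivirus carrying a short hairpin RNA against KLF9 (shKLF9, genotype labelled KLF9 knockdown) and 2 from cells infected with a control hairpin (shcontrol, genotype labelled WT). All cells were selected with puromycin for 2 weeks and grown in medium with fetal bovine serum, and the labels name no added steroid. Poly(A) RNA was sequenced. The labels call the replicates biological and do not say whether they came from separate infections. The p-values weigh the group difference against the spread between these libraries, estimated with information from all tested genes. Whether they extend to a repeated infection is not known. The study asked how depletion of KLF9, a Krüppel-like transcription factor that is itself known as a glucocorticoid-induced gene, alters expression in these cells.

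The glucocorticoid receptor is held in the cytoplasm by HSP90 and its co-chaperones, binds cortisol, and moves to the nucleus. There it activates genes that carry response elements and restrains inflammatory genes. FKBP5, an HSP90 co-chaperone that lowers the receptor's affinity for hormone, and TSC22D3, which encodes the anti-inflammatory leucine zipper protein GILZ, are among its most widely induced genes. In lung epithelium, glucocorticoids are known to promote differentiation and to dampen inflammation, and several of the induced genes also respond to growth factors, hypoxia or nutrient stress.

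NCI-H146 was deposited as read counts, with 15406264 to 16109803 counts per library, and its levels are given as library-scaled CPM, the usual depth-normalized count. NCI-H1688 was deposited as TPM, an abundance scaled by transcript length and library, and no level was compared across the 2 tables. KLF9 itself was at 24.9 and 32.3 CPM in NCI-H146 shKLF9 libraries, against 67.0 and 61.9 CPM in shcontrol libraries (edgeR adjusted p = 0.0131). In NCI-H1688 the labels were not borne out, with KLF9 at 1.945 and 1.596 TPM in the libraries labelled shKLF9, against 0.298 and 0.644 TPM in those labelled shcontrol (limma adjusted p = 0.0952). Directions in that line are therefore those of the libraries labelled shKLF9. Mitochondrially encoded genes took 8.56% of counts in NCI-H146 shKLF9 replicate 1 and 0.897% to 1.20% in the other 3 libraries of the line. In NCI-H1688 they took 18.2% and 16.8% of TPM in libraries labelled shKLF9, against 15.4% and 14.7% in those labelled shcontrol. The 4 epithelial markers EPCAM, CDH1, KRT8 and KRT18 summed to between 197 and 307 CPM over the NCI-H146 libraries. In NCI-H1688 they summed to 1451 and 1480 TPM in libraries labelled shKLF9, against 2431 and 2519 TPM in those labelled shcontrol. The keratin genes KRT8 and KRT18 fell there and CDH1 rose, to 81.7 and 80.8 TPM in libraries labelled shKLF9, against 54.7 and 63.2 TPM in those labelled shcontrol (limma adjusted p = 0.0348). Neuroendocrine markers were low, in contrast to the label of small cell lung cancer. In NCI-H1688, INSM1 and NEUROD1 were listed at 0 in all 4 libraries and the list of 6 summed to at most 2.00 TPM. In NCI-H146, CHGA, SYP, NEUROD1 and NCAM1 summed to 7.65 and 13.04 CPM in shKLF9 libraries, against 2.49 and 3.07 CPM in shcontrol libraries, and the leukocyte gene PTPRC stood at 10.36 CPM in each shKLF9 library, against 13.3 and 12.1 CPM in shcontrol libraries. Over 5 leukocyte markers the NCI-H146 sums were 15.4 and 14.7 CPM in shKLF9 libraries, against 21.2 and 19.9 CPM in shcontrol libraries, and over 4 fibroblast markers 54.1 and 68.5 CPM, against 129 and 78.7 CPM. The fibroblast markers did not move together. COL1A1 was at 24.0 and 28.3 CPM in shKLF9 libraries, against 104.6 and 48.9 CPM in shcontrol libraries. COL3A1 lay the other way, at 30.1 and 40.3 CPM, against 24.3 and 29.8 CPM, and was not called. COL1A2 and LUM reached at most 0.202 and 0.135 CPM. In NCI-H1688 the 6 leukocyte markers summed to 19.5 and 19.8 TPM in libraries labelled shKLF9, against 12.2 and 13.2 TPM in those labelled shcontrol. The 5 fibroblast markers there summed to 20.1 and 17.5 TPM, against 12.2 and 14.2 TPM. The part of these differences in the results was not tested. In such bulk samples, fewer cells of a type and less RNA per cell cannot be told apart.

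To show the sequence around the members that moved, DNA before their transcription starts was read from RefSeq (build GRCh38.p14), whose table matched 7 of the 9 members with 20 starts. No entry for CEBPD or ZBTB16 was found there, so neither was searched. The search covered the 250 bases before each start, on both strands. The windows below overlap no annotated exon (1 of the 2 such windows of NR3C1, and those of FKBP5, SGK1 and ERRFI1) and show members that fell in NCI-H146 beside FKBP5, which was not called there. Letters run 5′ to 3′ on the gene's strand (minus in all 4), and capitals mark the GC box GGGCGG or its reverse complement, the kind of site that Krüppel-like factors bind.
NR3C1, chr5:143405356-143405605: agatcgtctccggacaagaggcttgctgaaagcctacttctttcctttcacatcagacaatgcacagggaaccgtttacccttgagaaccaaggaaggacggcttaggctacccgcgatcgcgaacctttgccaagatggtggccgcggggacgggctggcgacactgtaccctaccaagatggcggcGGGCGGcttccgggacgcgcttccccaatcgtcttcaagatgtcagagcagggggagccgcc
FKBP5, chr6:35728584-35728833: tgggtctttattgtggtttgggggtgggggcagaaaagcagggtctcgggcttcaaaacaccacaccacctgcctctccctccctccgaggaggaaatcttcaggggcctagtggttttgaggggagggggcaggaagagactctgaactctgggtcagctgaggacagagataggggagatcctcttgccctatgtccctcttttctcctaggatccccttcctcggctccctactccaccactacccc
SGK1, chr6:134318113-134318362: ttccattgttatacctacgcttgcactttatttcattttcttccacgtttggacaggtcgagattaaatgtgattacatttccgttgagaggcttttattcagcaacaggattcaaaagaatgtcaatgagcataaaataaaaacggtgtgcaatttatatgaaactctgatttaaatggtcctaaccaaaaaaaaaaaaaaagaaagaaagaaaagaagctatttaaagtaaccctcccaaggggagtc
ERRFI1, chr1:8026310-8026559: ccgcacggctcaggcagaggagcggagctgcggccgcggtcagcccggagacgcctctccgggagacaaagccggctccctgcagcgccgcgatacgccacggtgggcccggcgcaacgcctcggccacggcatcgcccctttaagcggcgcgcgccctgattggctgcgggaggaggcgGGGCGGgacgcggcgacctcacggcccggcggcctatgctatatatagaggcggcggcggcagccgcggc
The NR3C1 and ERRFI1 windows held 1 GC box each, and those of FKBP5 and SGK1 printed here held no GC box. The other NR3C1 window free of exons (chr5:143435513-143435762) held no GC box, and the window before the other FKBP5 start (chr6:35688916-35689165) held 3. Of 35116 RefSeq windows of this length, 42.6% held at least 1 GC box. Across the 20 windows of the members, the most GC boxes stood before an SGK1 start at chr6:134174867-134175116, with 6, a number reached by 2.22% of all windows. The CACCC box was also searched and is not marked in capitals. It had 1 match in the printed FKBP5 window and 0 in those of NR3C1, SGK1 and ERRFI1, and was found in 54.7% of all windows. The receptor's short motif AGAACA was found in none of the 20 windows and in 12.4% of all windows. The full palindromic response element, AGAACA and TGTTCT with any 3 bases between, occurred in 1 of the 35116 windows. These matches describe letters in a short window and locate no binding site.

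In NCI-H146, the receptor gene and 5 of its induced genes fell in shKLF9 cells, while FKBP5 and DDIT4 were not called. Of the 8 members tested, 6 were called lower by edgeR's quasi-likelihood test with Benjamini-Hochberg adjustment over 13129 genes (adjusted p under 0.05), against 9.12% of all tested genes called lower. CEBPD passed the filter on low counts through the shcontrol group alone, and without it 5 of 7 were called lower. The median log2 fold change was -1.37 over the 8 and -1.27 over the 7, beside 0.0053 over all tested genes. The groups did not overlap, with shKLF9 lower, for 6 of the 8 (31.9% of all tested genes), and with shKLF9 higher for FKBP5 (30.6% of all tested genes). ZBTB16 did not pass the filter on low counts and was not tested.

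NR3C1 (chromosome 5, 143277931 to 143435512, minus strand, protein coding) encodes the receptor. It stood at 13.9 and 16.3 CPM in shKLF9 libraries, against 34.2 and 38.7 CPM in shcontrol libraries. The groups lay well apart, at 15.1 ± 1.65 and 36.5 ± 3.17 CPM (SD, n = 2 each). The log2 fold change was -1.27 with a standard error of 0.30 (edgeR adjusted p = 0.0114). NR3C2, the mineralocorticoid receptor gene, whose product also binds cortisol, fell as well, to 2.10 and 1.75 CPM in shKLF9 libraries, against 4.45 and 5.43 CPM in shcontrol libraries (log2 fold change -1.36, edgeR adjusted p = 0.0343). HSD11B2, which encodes the enzyme that inactivates cortisol, was at 44.7 and 29.6 CPM in shKLF9 libraries, against 34.2 and 40.01 CPM in shcontrol libraries, with overlapping groups.

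The classical induced genes TSC22D3 and FKBP5 differed in direction in this line. TSC22D3 (chromosome X, 107713221 to 107777342, minus strand) stood at 28.8 and 62.9 CPM in shKLF9 libraries, against 155.6 and 99.8 CPM in shcontrol libraries. The groups did not overlap although each spread widely, and the log2 fold change was -1.48 with a standard error of 0.35 (edgeR adjusted p = 0.0121). FKBP5 (chromosome 6, 35573585 to 35728583, minus strand) was at 167 and 143 CPM in shKLF9 libraries, against 90.0 and 123 CPM in shcontrol libraries. Its groups did not overlap either, with the shKLF9 libraries higher, but the difference was not called (log2 fold change 0.54 ± 0.28, SE; edgeR adjusted p = 0.188).

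Among genes of growth factor signalling, SGK1 (chromosome 6, 134169246 to 134318112, minus strand), a kinase that stimulates sodium transport and cell survival, stood at 6.23 and 3.68 CPM in shKLF9 libraries, against 18.2 and 12.1 CPM in shcontrol libraries. Its log2 fold change was -1.61 with a standard error of 0.37 (edgeR adjusted p = 0.0111). ERRFI1 (chromosome 1, 8004404 to 8026308, minus strand), which encodes the EGFR inhibitor MIG6, was at 17.1 and 17.4 CPM in shKLF9 libraries, against 53.3 and 44.8 CPM in shcontrol libraries. This was the smallest adjusted p among the members (log2 fold change -1.51 ± 0.29, SE; edgeR adjusted p = 0.00499), and its shKLF9 libraries agreed closely. CEBPD (chromosome 8, 47736909 to 47739086, minus strand), a transcription factor of acute inflammation, was scarce, with 5 and 8 counts in shKLF9 libraries, against 30 and 18 counts in shcontrol libraries. The exact 95% Poisson intervals of these counts, which cover counting error only, were 1.62 to 11.7 and 3.45 to 15.8 counts in shKLF9 libraries, against 20.2 to 42.8 and 10.7 to 28.4 counts in shcontrol libraries. Its call rested close to the threshold (log2 fold change -1.84 ± 0.58, SE; edgeR adjusted p = 0.0400) and was lost with DESeq2 (adjusted p = 0.122) and limma-voom (adjusted p = 0.0572).

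Among genes of nutrient metabolism, GLUL (chromosome 1, 182381704 to 182392206, minus strand), which encodes glutamine synthetase, stood at 96.9 and 111 CPM in shKLF9 libraries, against 217 and 168 CPM in shcontrol libraries (log2 fold change -0.89 ± 0.28, SE; edgeR adjusted p = 0.0398). DDIT4 (chromosome 10, 72273920 to 72276036, plus strand), an inhibitor of mTORC1, was at 141 and 383 CPM in shKLF9 libraries, against 170 and 155 CPM in shcontrol libraries. Replicate 2 of the shKLF9 group lay far above the other 3 libraries and replicate 1 below both controls, so the groups overlapped (log2 fold change 0.69 ± 0.37, SE; edgeR adjusted p = 0.198). Without shKLF9 replicate 2 the DDIT4 fold change was -0.20 (adjusted p = 0.651), and without shKLF9 replicate 1 it was 1.249 (adjusted p = 8.466e-05). ZBTB16 (chromosome 11, 114059593 to 114250676, plus strand), a zinc finger repressor strongly induced by glucocorticoids in many tissues, had 3 and 10 counts in shKLF9 libraries, against 5 and 2 counts in shcontrol libraries, with overlapping groups.

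With 1 library left out the calls in NCI-H146 changed. Without shcontrol replicate 2 the member count went to 0 called and 4 at an unadjusted p under 0.05 (edgeR, with 51 genes called in the whole line), and the lone control was then assumed to vary like the other group. Without shcontrol replicate 3 it was 3 of 8, with NR3C1 lost (adjusted p = 0.124). Without shKLF9 replicate 1, the library rich in mitochondrial reads, 5 members were called lower and DDIT4 higher, and all 6 members called with 4 libraries kept a negative fold change in each of these fits.

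**Figure D1:**
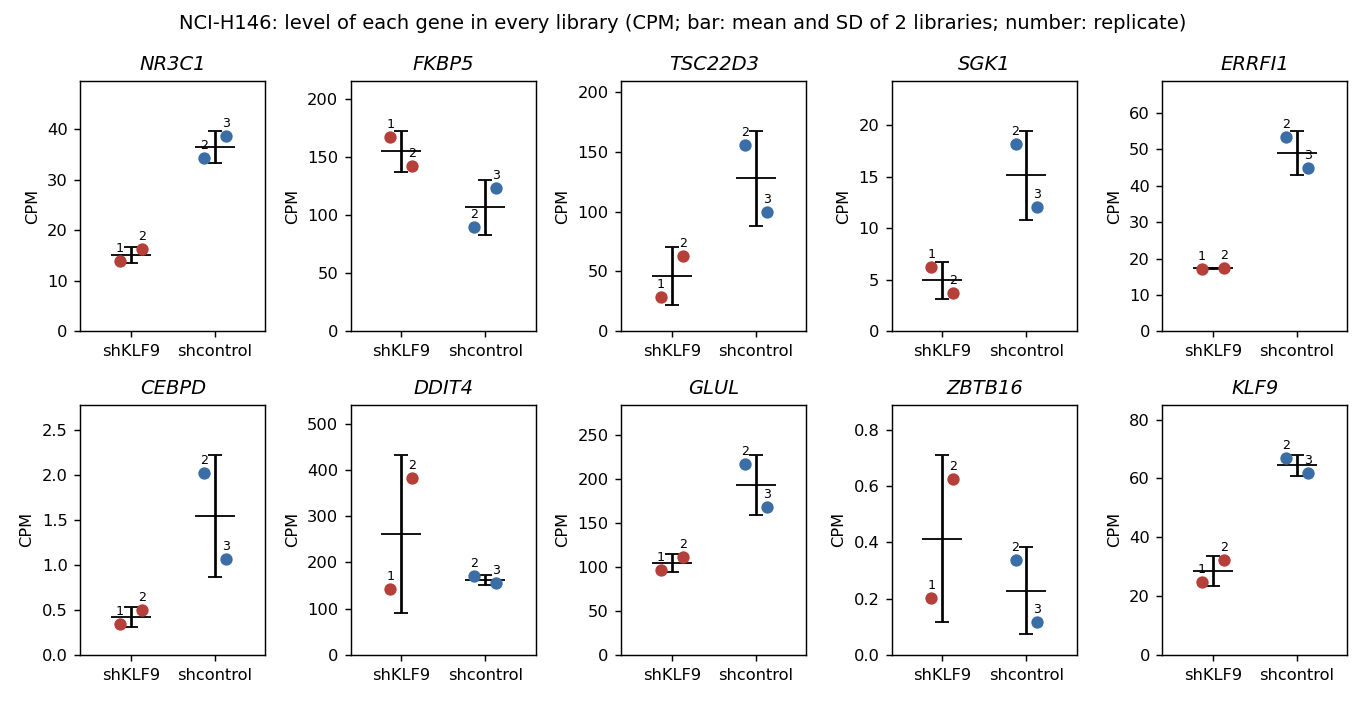
Level of each member and of KLF9 in NCI-H146 in CPM on linear axes from 0, with shKLF9 libraries in red and shcontrol libraries in blue. Points are libraries with their replicate number, and bars are the mean and SD of 2 libraries. NR3C1, TSC22D3, SGK1, ERRFI1, CEBPD and GLUL sit lower in both shKLF9 libraries, FKBP5 sits higher, and DDIT4 is split between 141 and 383 CPM.

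In NCI-H1688, 5 of the 8 members tested rose in the libraries labelled shKLF9, and 4 of those 5 were genes that fell in NCI-H146. The test was limma on log2(TPM + 1) over 14754 genes whose mean reached 1 TPM, adjusted by Benjamini-Hochberg, and 6.36% of all tested genes were called higher. The members' median log2 fold change was 0.46, beside -0.021 over all tested genes. The groups did not overlap for any of the 8, with 7 members higher in libraries labelled shKLF9 (28.9% of all tested genes) and FKBP5 lower (33.8% of all tested genes). Over all genes 939 were called higher and 1427 lower, which became 1131 and 1077 when mitochondrially encoded genes were left out before scaling. Fold changes on this scale understate the change of low genes.

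DDIT4 and GLUL were the most abundant members and rose evenly. DDIT4 stood at 539.7 and 545.0 TPM in libraries labelled shKLF9, against 230 and 253 TPM in those labelled shcontrol, with a log2 fold change of 1.16 (standard error 0.06, limma adjusted p = 0.00436). GLUL was at 259 and 262 TPM, against 176 and 169 TPM, with a log2 fold change of 0.59 (standard error 0.05, limma adjusted p = 0.00900). CEBPD rose to 17.9 and 19.6 TPM in libraries labelled shKLF9, against 8.30 and 7.75 TPM in those labelled shcontrol. With a log2 fold change of 1.13 (standard error 0.10, limma adjusted p = 0.00902), its size was close to that of DDIT4. The growth factor signalling genes rose less. SGK1 was at 19.5 and 21.7 TPM in libraries labelled shKLF9, against 14.7 and 15.0 TPM in those labelled shcontrol (log2 fold change 0.45 ± 0.09, SE; limma adjusted p = 0.0377). ERRFI1 was at 12.6 and 12.5 TPM, against 8.70 and 8.88 TPM (log2 fold change 0.47 ± 0.09, SE; limma adjusted p = 0.0335).

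The receptor gene and the classical induced genes TSC22D3 and FKBP5 were not called in this line. NR3C1 stood at 28.8 and 33.2 TPM in libraries labelled shKLF9, against 27.4 and 23.0 TPM in those labelled shcontrol. The groups lay next to each other without overlap (log2 fold change 0.29 ± 0.12, SE; limma adjusted p = 0.174). TSC22D3 was at 7.99 and 11.6 TPM, against 7.83 and 7.55 TPM, so replicate 1 of the group labelled shKLF9 was close to the controls (log2 fold change 0.30 ± 0.19, SE; limma adjusted p = 0.339). FKBP5 was the member with a negative fold change, at 5.01 and 5.31 TPM in libraries labelled shKLF9, against 6.66 and 6.81 TPM in those labelled shcontrol (log2 fold change -0.33 ± 0.11, SE; limma adjusted p = 0.118). ZBTB16 was listed at 0.0567 and 0.0788 TPM, against 0.0458 and 0.0596 TPM, below the minimum level for the test.

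With 3 libraries no member of NCI-H1688 was called whichever library was left out (limma, 5 or 6 members at an unadjusted p under 0.05), as the calls of the whole line dropped to between 0 and 24 genes. With the replicate number as a block, 3 members were called, and SGK1 (adjusted p = 0.0663) and ERRFI1 (adjusted p = 0.0731) were not.

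**Figure D2:**
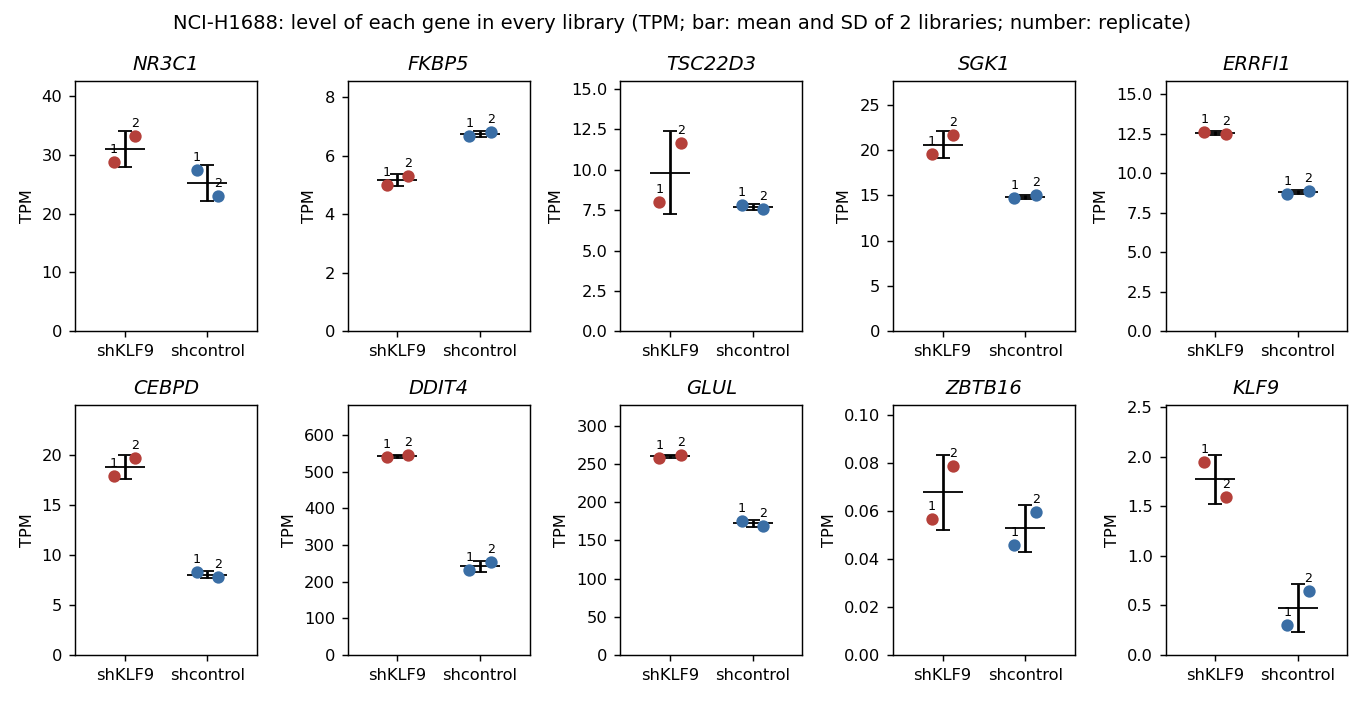
Level of each member and of KLF9 in NCI-H1688 in TPM on linear axes from 0, with libraries labelled shKLF9 in red and those labelled shcontrol in blue. Points are libraries with their replicate number, and bars are the mean and SD of 2 libraries. DDIT4, GLUL, CEBPD, SGK1 and ERRFI1 sit higher in both libraries labelled shKLF9, while FKBP5 sits lower.

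Set side by side, the fold changes of 7 of the 8 members had opposite signs in the lines under the deposited labels, as did 56.5% of the 10773 genes tested in both. KLF9 went against the labels of NCI-H1688, and with those labels exchanged every sign of that line would turn, so that these 7 would share a sign in both lines and DDIT4 would not. ERRFI1, SGK1, CEBPD and GLUL were called lower in NCI-H146 and higher in NCI-H1688. Of all genes tested in both lines, 127 (1.18%) were called in these directions, 202 (1.88%) were called higher in NCI-H146 and lower in NCI-H1688, 35 (0.325%) lower in both and 37 (0.343%) higher in both. NR3C1 and TSC22D3 had the same pair of signs but were called in NCI-H146 alone, and FKBP5 had the reverse pair, called in neither. Groups that did not overlap in either line, lower in NCI-H146 and higher in NCI-H1688, were found for 6 of the 8 members and for 11.3% of genes tested in both, and in either pair of opposite directions for 7 members and 26.3% of genes. KLF9 followed the same pair of signs, at -1.17 in NCI-H146 and 0.92 in NCI-H1688 on the log2 scale, and was not called in NCI-H1688. The difference between the lines was not tested, because the tables were normalized separately and in different units.

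**Figure D3:**
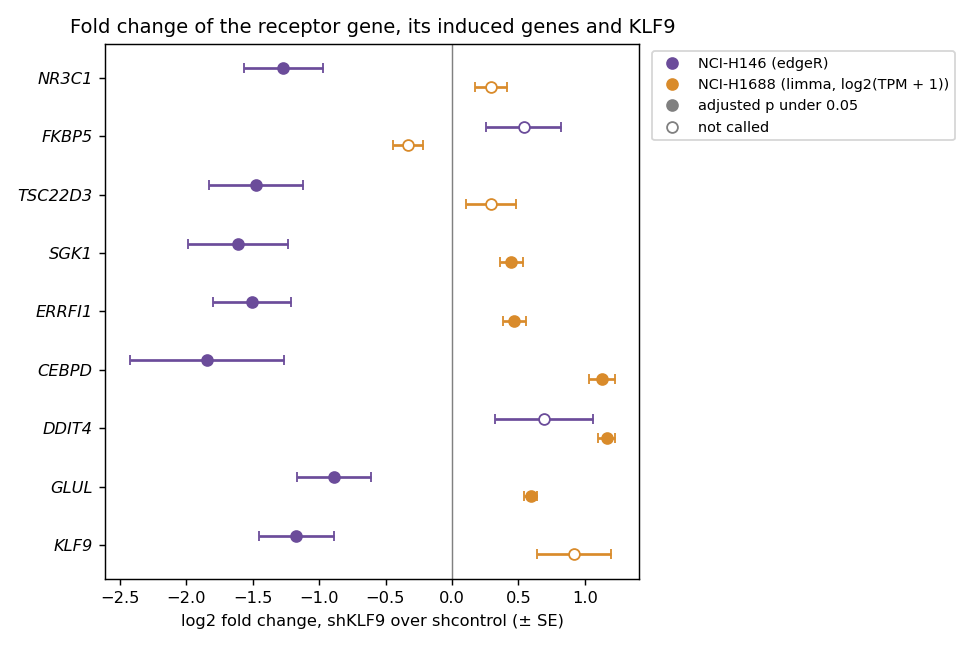
Log2 fold change of shKLF9 over shcontrol with its standard error for 8 members and KLF9, in NCI-H146 (edgeR) and NCI-H1688 (limma on log2(TPM + 1)). Filled points have an adjusted p under 0.05. ERRFI1, SGK1, CEBPD and GLUL are filled on opposite sides of 0 in the 2 lines, and FKBP5 lies on the other side from them, open in each.

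The order of level among the members was read within each line. The orders of the 2 lines rest on unlike measures of length and were not compared. Per kilobase of annotated exon (GENCODE 29), DDIT4 had the highest level in NCI-H146, at 127 CPM per kilobase in shKLF9 cells and 78.9 in shcontrol cells. In shcontrol cells TSC22D3 (26.8 CPM per kilobase) and GLUL (21.3) came next with overlapping libraries, then ERRFI1 (11.7) and FKBP5 (10.04), which overlapped as well. NR3C1 (3.98), SGK1 (1.52), CEBPD (0.708) and ZBTB16 (0.0357) followed, each apart from the next. In shKLF9 cells FKBP5 took the place after DDIT4, at 14.6 CPM per kilobase, ahead of GLUL (11.5) and TSC22D3 (9.63), which overlapped. In NCI-H1688 the order on the TPM scale was DDIT4, GLUL, NR3C1 and SGK1 in both groups, with ZBTB16 last and FKBP5 before it. CEBPD overlapped SGK1 in the libraries labelled shKLF9, and overlapped TSC22D3 in those labelled shcontrol. The exon length joins all annotated transcripts and may exceed the length in use, which lowers a per kilobase level.

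The genes most like a member over the 8 libraries were sought by the root mean square difference of log2 levels, each taken from its line's control mean, among 8447 other genes with a mean of at least 5 CPM and 5 TPM. NR3C1 was closest to HIPK3, a protein kinase gene (0.0630 on the log2 scale), SGMS2, a sphingomyelin synthase gene (0.0945), and TMEM263 (0.0967). TSC22D3 was closest to SERINC1 (0.142), CYLD, a deubiquitinase gene of NF-kB signalling (0.182), and PNPLA8, a phospholipase gene (0.200). SGK1 was closest to TCEAL9 (0.123), STK17B, an apoptosis-linked kinase gene (0.131), and UBE2D1, a ubiquitin-conjugating enzyme gene (0.134). Their log2 fold changes lay between -1.91 and -1.19 in NCI-H146 and between 0.14 and 0.42 in NCI-H1688, with signs that the choice by likeness fixed.

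The chaperones that fold the receptor were measured as a list of 14. In NCI-H1688, 10 of them fell and 1 rose in libraries labelled shKLF9, where 9.67% of all tested genes were called lower, and the list median was -0.46. HSP90AA1, the stress-inducible HSP90, was at 399 and 387 TPM in libraries labelled shKLF9, against 875 and 932 TPM in those labelled shcontrol (limma adjusted p = 0.00361). FKBP4, the co-chaperone that competes with FKBP5 and favours hormone binding, was at 57.5 and 61.6 TPM, against 91.2 and 98.2 TPM (limma adjusted p = 0.0122). The cyclophilin gene PPID and the constitutive HSP90AB1 fell by 0.73 and 0.49 on the log2 scale. In NCI-H146, 8.01% of tested genes were called higher and 9.12% lower. HSP90AA1 and DNAJB1 fell there and STUB1, a ubiquitin ligase gene that clears HSP90 clients, rose, with a list median of 0.17. HSP90AA1 was at 1795 and 1271 CPM in shKLF9 libraries, against 5791 and 2669 CPM in shcontrol libraries, and the controls differed widely from each other. DNAJB1 was at 120 and 185 CPM, against 1039 and 370 CPM. STUB1 was at 85.5 and 108 CPM, against 40.02 and 37.5 CPM (log2 fold change 1.32, edgeR adjusted p = 0.00726). Without shcontrol replicate 2, no chaperone was called in NCI-H146 by edgeR (2 at an unadjusted p under 0.05) and the list median was 0.38, and without shcontrol replicate 3, 1 was called lower and the median was -0.094. Without shKLF9 replicate 1 the median was -0.28. Without any 1 library of NCI-H1688, no chaperone was called there by limma (11 to 13 at an unadjusted p under 0.05).

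Of 16 receptor coregulators, 4 fell in NCI-H146 (9.12% of all tested genes were called lower), with a list median of -0.55. PPARGC1A, a coactivator of oxidative metabolism, was at 15.7 and 12.8 CPM in shKLF9 libraries, against 55.5 and 65.3 CPM in shcontrol libraries (log2 fold change -2.08, edgeR adjusted p = 0.00108). The p160 coactivator gene NCOA3 and the acetyltransferase gene EP300 fell by 1.03 and 0.91 on the log2 scale. In NCI-H1688 the coactivator gene NCOA3 rose to 19.48 and 19.52 TPM in libraries labelled shKLF9, against 12.1 and 10.7 TPM in those labelled shcontrol (limma adjusted p = 0.0170). The list median there was 0.029. The NCI-H146 count was 1 without shcontrol replicate 2, 1 without shcontrol replicate 3 and 8 without shKLF9 replicate 1.

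Of 24 other glucocorticoid-induced genes, 22 were tested in NCI-H146 and 9 fell (9.12% of all tested genes were called lower), with a list median of -0.70. Without RASD1, which passed the count filter through the shcontrol group alone, 8 of 21 fell with a median of -0.62. RGS2, a brake on G protein signalling, was at 2.23 and 3.99 CPM in shKLF9 libraries, against 54.4 and 23.3 CPM in shcontrol libraries (log2 fold change -3.63, edgeR adjusted p = 0.000371). PDK4, which restrains pyruvate oxidation, was at 6.70 and 5.05 CPM, against 25.1 and 27.0 CPM (log2 fold change -2.15, edgeR adjusted p = 0.00142). ZFP36, an mRNA-destabilizing protein gene, and RASD1, a dexamethasone-induced RAS-like gene, fell by 1.69 and 2.25 on the log2 scale. The count was 2 without shcontrol replicate 2 and 5 without shcontrol replicate 3, and 10 fell without shKLF9 replicate 1. In NCI-H1688, 10 of 22 tested genes rose and 2 fell, with a list median of 0.44. Of all tested genes there, 6.36% were called higher and 9.67% lower. LCN2, an iron-binding lipocalin gene, was at 242 and 241 TPM in libraries labelled shKLF9, against 69.0 and 77.2 TPM in those labelled shcontrol (limma adjusted p = 0.00277). ZFP36 was at 69.4 and 72.1 TPM, against 33.95 and 34.99 TPM, and RASD1 at 16.7 and 15.3 TPM, against 4.22 and 4.06 TPM. NFKBIA, the NF-kB inhibitor gene, rose 2.23-fold. RGS2 and the metallothionein gene MT2A fell in that line. With any 1 library of NCI-H1688 left out, at most 1 gene of the list was called by limma, with 11 to 16 at an unadjusted p under 0.05.

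Inflammatory genes that the receptor is known to repress did not move one way in NCI-H1688, where 6 of 18 tested genes rose and 5 fell with a list median of -0.15. Of all tested genes there, 6.36% were called higher and 9.67% lower. With 1 library of that line left out, the list median lay between -0.18 and -0.12. The chemokine genes CCL5 and CCL20 were at 27.4 and 27.0 TPM and at 36.2 and 34.2 TPM in libraries labelled shKLF9, against 5.18 and 4.21 TPM and 12.7 and 14.3 TPM in those labelled shcontrol. The collagenase gene MMP1 and the cytokine gene IL11 fell by 1.45 and 1.04 on the log2 scale. In NCI-H146, 3 of the 21 genes were tested. CXCL3 and PTGS2 were called lower, but both reached the filter level of 0.645 CPM in both libraries of the shcontrol group alone, so no count or median is read from them. DESeq2 did not call CXCL3 and gave no adjusted p for PTGS2, with all 3 genes at an unadjusted p under 0.05. Both calls by edgeR were lost without shcontrol replicate 2. The cyclooxygenase gene PTGS2 was at 0 in both shKLF9 libraries, against 1.48 and 0.944 CPM in shcontrol libraries.

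Paralogs of the members were read as a list of 13. In NCI-H146, 2 of 11 tested paralogs fell, with a median of -0.13, a share read beside the 9.12% of all tested genes called lower. TSC22D2 was at 40.2 and 42.8 CPM in shKLF9 libraries, against 92.6 and 86.7 CPM in shcontrol libraries, and CEBPG at 68.0 and 84.6 CPM, against 190 and 154 CPM (edgeR adjusted p = 0.0138 and 0.0124). In NCI-H1688, 3 rose and 1 fell of 11, with a median of 0.080, beside 6.36% of all tested genes called higher and 9.67% called lower. The C/EBP family genes CEBPB and CEBPA rose 1.49-fold and 2.28-fold and TSC22D1 rose 1.57-fold, while FKBP1A, which encodes the small immunophilin FKBP12, was at 0.782 of its mean in libraries labelled shcontrol.

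Lists around the members' pathways gave small counts, several of them near the share over all tested genes (8.01% higher and 9.12% lower in NCI-H146, 6.36% higher and 9.67% lower in NCI-H1688), and such counts are no result about a list. In the list of EGFR family members, ligands and feedback genes, 3 of 9 fell in NCI-H146, with a median of -0.28. These were DUSP6, HBEGF and SPRY4, of which SPRY4 passed the count filter through the shcontrol group alone. In NCI-H1688, 1 of 11 rose and 3 fell, with a median of 0.048, and the ligand gene AREG was at 386 and 374 TPM in libraries labelled shKLF9, against 740 and 769 TPM in those labelled shcontrol (limma adjusted p = 0.00409). HBEGF, another EGFR ligand gene, fell by 1.71 in NCI-H146 and, under the deposited labels that KLF9 goes against, by 0.66 in NCI-H1688, on the log2 scale. For glutamine metabolism, 1 of 12 genes rose and 1 fell in NCI-H146, with a median of -0.058, and 1 of 12 rose and 5 fell in NCI-H1688, with a median of -0.24. The glutamine transporter gene SLC38A2 fell in NCI-H146 to 99.6 and 126 CPM in shKLF9 libraries, against 204 and 257 CPM in shcontrol libraries. It rose 1.20-fold in NCI-H1688, as GLUL did, and CAD, which starts pyrimidine synthesis from glutamine, had the opposite signs (log2 fold change 1.38 in NCI-H146 and -0.61 in NCI-H1688). Among 13 tested mTORC1 regulators in NCI-H146, RPTOR rose and the sestrin genes SESN2 and SESN3 fell, with a median of 0.25. In NCI-H1688, 1 of 12 rose and 1 fell, SESN1 and EIF4EBP1, with a median of -0.069. For steroid receptors and ligand access, NR3C2 was the 1 gene called of 5 tested in NCI-H146 (median -9.26e-05). In NCI-H1688, 3 genes were tested and none was called by limma (median -0.12).

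Without shcontrol replicate 2, edgeR called no gene of the paralog, EGFR, glutamine, mTORC1, hypoxia or ATF4 lists in NCI-H146, with 2 or 3 in each at an unadjusted p under 0.05. With any 1 library of NCI-H1688 left out, limma called no gene of these lists other than at most 2 of the hypoxia list.

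Several members are known to answer other signals, and lists for these were read beside them. Of all tested genes, 8.01% were called higher and 9.12% lower in NCI-H146, and 6.36% higher and 9.67% lower in NCI-H1688. Hypoxia-induced genes rose in 10 of 12 cases in NCI-H1688, with a median of 1.11, beside the rise of DDIT4, which is itself induced by hypoxia. CA9 was at 42.2 and 43.4 TPM in libraries labelled shKLF9, against 3.11 and 2.31 TPM in those labelled shcontrol, and NDRG1, an SGK1 substrate gene, rose 4.54-fold. In NCI-H146, NDRG1 and KDM3A fell and the other 10 were not called, with a median of -0.28. Immediate early genes, which like SGK1 and CEBPD are switched on within minutes of a stimulus, fell in 10 of 15 cases in NCI-H146, with a median of -1.69, and in 9 of 13 without those that passed the count filter through the shcontrol group alone. ZFP36, given above with the other glucocorticoid-induced genes, is also on this list, so these lists are not separate sets. EGR1 was at 5.42 and 3.62 CPM in shKLF9 libraries, against 37.7 and 20.3 CPM in shcontrol libraries. Of 13 tested in NCI-H1688, 8 rose and 2 fell, with a median of 0.80, and EGR1 was at 156 and 145 TPM in libraries labelled shKLF9, against 83.4 and 80.8 TPM in those labelled shcontrol. ATF4 stress genes fell in 4 of 12 cases in NCI-H146, with a median of -0.71, DDIT3 and ATF3 among them. In NCI-H1688, 3 rose and 3 fell of 12, with a median of 0.11. The immediate early count in NCI-H146 was 2 without shcontrol replicate 2, and without any 1 library of NCI-H1688 no immediate early gene was called there by limma (10 or 11 at an unadjusted p under 0.05). Whether these signals account for any part of the members' changes was not tested.

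**Figure D4:**
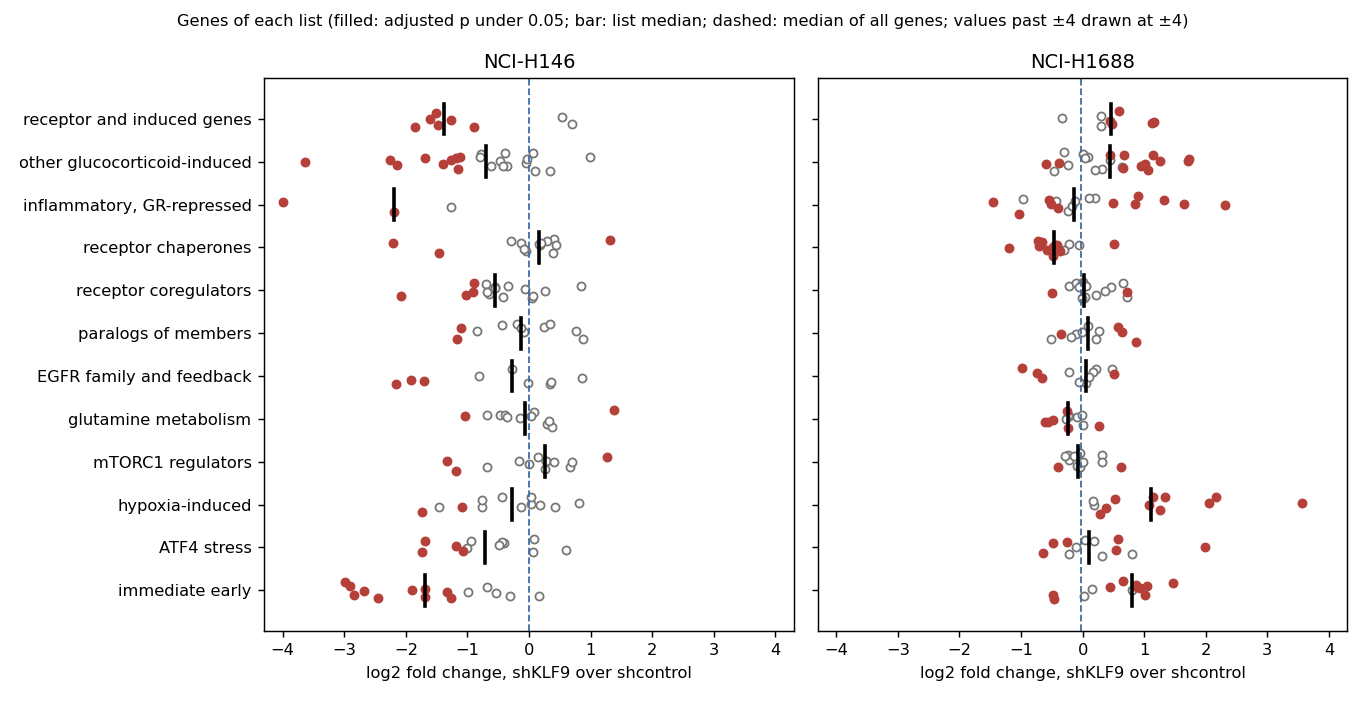
Log2 fold change of shKLF9 over shcontrol for each tested gene of the members and of 11 lists, in NCI-H146 on the left and NCI-H1688 on the right. Filled points have an adjusted p under 0.05, black bars are list medians and the dashed line is the median of all tested genes. The member median is -1.37 in NCI-H146 and 0.46 in NCI-H1688, and the chaperone median is 0.17 and -0.46.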

How the data were processed

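RNA of 8 libraries was sequenced after poly(A) selection, fragmentation and random priming, per the labels' protocols. The authors deposited read counts per gene for NCI-H146 and TPM for NCI-H1688. TPM of the rows kept summed to between 842439 and 885111 per library. STAR 2.5.1, GRCh38 and DESeq2 are listed in the submitters' processing notes, with no role stated. The counter, the annotation and any strand setting are not given in the sources used here. Without strand, reads of overlapping genes cannot be told apart. Depth was 15406264 to 16109803 counts per NCI-H146 library, and TPM keep no depth.

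Names shared by 1599 NCI-H1688 rows were reduced to the row with the highest mean. The NCI-H146 table went into the quasi-likelihood test of edgeR 4.0.16 (R 4.3.3, TMM, filterByExpr), with a standard error of log2 fold change over root F. NCI-H1688 was tested with limma 3.58.1 (trend) on log2(TPM + 1) at a mean of at least 1 TPM. Each line was fitted alone, with Benjamini-Hochberg adjustment over all tested genes. Means carry the SD of 2 libraries. Each test was tried on simulated data with known changes. DESeq2 1.42.0 and limma-voom were alternatives. Members and lists were chosen with earlier results of these data known. Named genes are the members, KLF9, up to 4 called genes per list and line with the smallest adjusted p, tested paralogs, NR3C2 and the 3 nearest genes of NR3C1, TSC22D3 and SGK1, and not all are reported. HSD11B2, MT2A and RGS2 in NCI-H1688 and single marker genes were named after their values were seen. Some genes of these lists are not reported here.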

Additional observations from a re-analysis of the deposited data

Results flagged for a closer look

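For 7 members every shKLF9 library lay on one side of the shcontrol libraries in NCI-H146 and on the other side in NCI-H1688, under the deposited labels. Groups that did not overlap and lay in opposite directions were found for 26.3% of the 10773 genes tested in both lines. KLF9 was higher in the NCI-H1688 libraries labelled shKLF9, but was not called (log2 fold change 0.92, limma adjusted p = 0.0952). With the labels of that line exchanged its signs below would turn and match those of NCI-H146. The choice of these 7 members by opposite directions fixes that match, so it is no test of the labels. The difference between the lines was not tested, since the tables were normalized separately. The log2 fold changes of shKLF9 over shcontrol are given here first for NCI-H146 and then for NCI-H1688. They were -1.27 and 0.29 for NR3C1, -1.48 and 0.30 for TSC22D3, and -1.61 and 0.45 for SGK1. They were -1.51 and 0.47 for ERRFI1, -1.84 and 1.13 for CEBPD, and -0.89 and 0.59 for GLUL. FKBP5 had the reverse pair, 0.54 and -0.33.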

How the results depend on the processing

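Over the members and KLF9, the sign of every fold change held under each alternative that could be fitted, except DDIT4 in NCI-H146, which was -0.20 without shKLF9 replicate 2 and 1.249, and then called, without shKLF9 replicate 1. In NCI-H146 the count of called genes was 2250 and the count of called members 6. With 1 library left out these ranged from 51 to 5026 genes and from 0 to 6 members. The other settings left both counts within 1.5 times, although CEBPD was lost with DESeq2, limma-voom and no filter on low counts, and GLUL with no filter. In NCI-H1688 the counts were 2366 genes and 5 members. With 1 library left out they ranged from 0 to 24 genes and were 0 for members, with 3298 to 4419 genes at an unadjusted p under 0.05 in limma. They were 943 genes and 3 members with no filter on low values, 834 and 3 without a trend, and 1218 and 3 with the replicate number as a block. Deviations of the same-numbered libraries from their group means, taken without a block, correlated at -0.0051 over genes. That value shows no shared deviation, but it cannot tell whether same-numbered libraries were handled together. In NCI-H146 no paired analysis was possible because the groups share a single replicate number. The split of 939 higher and 1427 lower genes in NCI-H1688 became 1131 and 1077 without mitochondrially encoded genes, and 488 and 346 without a trend. Over every named gene and setting that kept all 4 libraries and gave an adjusted p, a call was lost 7 times in NCI-H146 and 39 times in NCI-H1688. A call was gained 3 times in NCI-H1688. The causes were not tested. Groups of 2 limit precision. CEBPD in NCI-H146 rests on few counts, and the depth behind the TPM of NCI-H1688 is unknown.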
